A study of Mus musculus with 50 samples.

Results

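The 10 genes described here encode parts of the mouse autophagy machinery: Sqstm1, Map1lc3a, Map1lc3b, Gabarapl1, Wipi1, Ulk1, Becn1, Atg5, Atg12 and Tfeb. They were looked up by symbol in a table of read counts with 39056 gene entries, all 10 were found, and all 10 were among the 16460 genes with enough reads to be tested. The table holds 50 bulk RNA-seq libraries of developing oligodendrocytes, the cells that will form myelin in the central nervous system. Precursors were purified by immunopanning from cortices of C57BL/6 pups at 6 days of age, carried through 2 passages and left to differentiate for 12 to 14 h before treatment. Cells with a homozygous null Nrf2 gene (Nrf2-/-) and wild-type cells each received thapsigargin at 200 µM for 1 or 8 h, IFN-γ at 200 U/ml for 1, 8, 24 or 48 h, or no treatment for 1, 8, 24 or 48 h. Each of the 20 groups has 3 Nrf2-/- or 2 wild-type libraries. The dose of thapsigargin is as the labels state it, the series' design text gives more Nrf2-/- replicates than the 3 analysed here, and no source says that the libraries of a group came from separate animals or cultures. What the p-values measure is thus the spread among libraries alone, and that spread may be technical.

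Autophagy is the route by which a cell encloses part of its own cytoplasm in a double membrane, the autophagosome, and delivers it to lysosomes for breakdown. The kinase ULK1 starts the process, a lipid kinase complex that contains Beclin 1 (Becn1) marks the membrane with a phosphoinositide, WIPI proteins read that mark, and the ATG12-ATG5 conjugate helps to attach LC3 and GABARAP proteins (Map1lc3a, Map1lc3b, Gabarapl1) to the growing membrane. The receptor p62 (Sqstm1) carries ubiquitinated cargo to LC3, binds KEAP1, the inhibitor of the transcription factor NRF2, and is encoded by an NRF2 target gene, while the transcription factor TFEB activates genes of autophagy and of lysosomes. Thapsigargin blocks the calcium pump of the endoplasmic reticulum and so causes endoplasmic reticulum stress, and IFN-γ is a cytokine that immune cells release.

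The targeted gene, Nfe2l2, was read first as a check of the genotype labels. It stood at 0.0973 to 0.859 CPM (read counts scaled to a common library size by the TMM method) in 29 of the 30 Nrf2-/- libraries, against 5.12 to 70.4 CPM in the 20 wild-type libraries. The library labelled Nrf2-/- untreated 8 h replicate 3 was the exception at 7.62 CPM, against 0.213 and 0.178 CPM in replicates 1 and 2 of its group and 5.12 and 10.1 CPM in wild-type cells at that hour. In 3 other libraries, replicate 2 of the Nrf2-/- thapsigargin, IFN-γ and untreated 8 h groups, the title says Nrf2-/- and another label says wild type. The title was followed, and Nfe2l2 stood at 0.669, 0.218 and 0.178 CPM in them. Library totals ran between 32252272 and 54657205 counts. The tissue label says whole brain, and 10 of 10 markers of the oligodendrocyte lineage were detected, with a summed level of 2434 to 36338 CPM per library. Summed markers reached 20.5 to 163 CPM for astrocytes, 7.74 to 28.1 CPM for neurons, 3.81 to 11.3 CPM for microglia and macrophages (2 of 8 markers tested, and 2 with no count in any library) and 1.22 to 5.67 CPM for endothelial cells, mural cells and fibroblasts (1 of 6 with no count).

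The promoters of 5 genes are shown first. Of the members with a promoter window, these had the largest changes, up or down, after 8 h of thapsigargin, and they were chosen after their values were seen. RefSeq (GRCm38.p6) gave promoter windows for 7 of the 10 genes, each with 250 bases before and 50 bases from the annotated start. Map1lc3a, Becn1 and Atg12 had no entry. Capitals mark the only matches to 4 motifs searched on both strands: TGACNNNGC (the core of the antioxidant response element that NRF2 binds), TTCNNNGAA (the GAS site of IFN-γ-responsive genes), CACGTG (the E-box of the element that TFEB binds) and TGATGNAA (the core of the composite site that C/EBP and ATF factors bind).
Sqstm1 promoter, chr11:50210771-50211070, minus strand: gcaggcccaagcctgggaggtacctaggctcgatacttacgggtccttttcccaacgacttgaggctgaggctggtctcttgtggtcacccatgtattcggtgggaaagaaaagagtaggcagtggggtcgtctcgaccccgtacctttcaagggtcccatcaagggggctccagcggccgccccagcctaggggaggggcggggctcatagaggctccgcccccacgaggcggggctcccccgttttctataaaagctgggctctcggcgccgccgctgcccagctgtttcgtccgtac
Map1lc3b promoter, chr8:121590188-121590487, plus strand: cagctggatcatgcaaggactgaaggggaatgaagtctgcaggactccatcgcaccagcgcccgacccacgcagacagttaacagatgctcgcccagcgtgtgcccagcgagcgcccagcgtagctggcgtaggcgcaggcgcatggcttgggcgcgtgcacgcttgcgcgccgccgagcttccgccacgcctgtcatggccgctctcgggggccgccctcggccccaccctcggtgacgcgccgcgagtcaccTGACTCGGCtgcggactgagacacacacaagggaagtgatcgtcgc
Gabarapl1 promoter, chr6:129532942-129533241, plus strand: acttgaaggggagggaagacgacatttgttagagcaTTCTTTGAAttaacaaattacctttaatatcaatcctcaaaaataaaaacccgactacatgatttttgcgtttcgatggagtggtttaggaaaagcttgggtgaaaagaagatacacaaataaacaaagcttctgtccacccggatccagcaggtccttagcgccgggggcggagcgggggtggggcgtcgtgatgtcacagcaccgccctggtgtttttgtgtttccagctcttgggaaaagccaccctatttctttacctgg
Wipi1 promoter, chr11:109611340-109611639, minus strand: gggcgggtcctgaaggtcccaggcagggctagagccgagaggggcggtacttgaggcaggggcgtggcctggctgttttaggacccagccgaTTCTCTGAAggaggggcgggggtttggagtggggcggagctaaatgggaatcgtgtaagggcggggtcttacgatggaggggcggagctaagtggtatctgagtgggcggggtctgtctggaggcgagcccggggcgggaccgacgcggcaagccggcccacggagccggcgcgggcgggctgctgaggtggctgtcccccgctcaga
Tfeb promoter, chr17:47736787-47737086, plus strand: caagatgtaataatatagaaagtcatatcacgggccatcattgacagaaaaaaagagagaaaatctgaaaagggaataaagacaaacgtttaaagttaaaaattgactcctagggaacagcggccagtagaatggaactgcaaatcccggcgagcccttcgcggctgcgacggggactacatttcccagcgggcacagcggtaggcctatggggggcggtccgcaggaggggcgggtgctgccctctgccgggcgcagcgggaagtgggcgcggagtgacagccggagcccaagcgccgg

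Map1lc3b held the antioxidant core at bases 5 to 13, counting the annotated start as base 1, and Gabarapl1 and Wipi1 each held a GAS match, at -214 to -206 and at -158 to -150. The windows of Sqstm1 and Tfeb held none of the 4 motifs. The Tfeb window printed is the one that contains the first base of Tfeb-202 (chr17:47737030), the transcript with the largest share of Tfeb's estimated counts, and the other two Tfeb windows held no match either. Atg5 held an E-box at -14 to -9, and Ulk1 held no match. Among all 32851 promoter windows of this length, 12.4% held TGACNNNGC, 8.3% TTCNNNGAA, 7.15% CACGTG and 3.97% TGATGNAA, so a match is common and is only a description of these letters.

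Levels per transcript length, in TPM (transcript counts divided by length and scaled to the same total in each library) computed from the deposited estimated counts, order the genes in untreated cells at 1 h (mean ± SD, n = 5 libraries of both genotypes). Sqstm1 had 167 ± 12.4 TPM, Map1lc3b 164 ± 10.4 TPM and Becn1 142 ± 5.92 TPM. Gabarapl1 followed at 94.7 ± 5.25 TPM and Map1lc3a at 91.5 ± 8.62 TPM. The conjugation genes Atg5 and Atg12 had 29.5 ± 1.44 and 23.1 ± 1.48 TPM, Tfeb 19.97 ± 2.05 TPM, Ulk1 19.1 ± 3.41 TPM and Wipi1 16.6 ± 1.80 TPM. Sqstm1 and Map1lc3b differed by less than their SD, as did Gabarapl1 and Map1lc3a, and Tfeb and Ulk1, so the cargo receptor and a LC3 gene stood at the top of the list and the initiating kinase and the transcription factor near its foot.

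Across the 20 groups the 10 genes moved by very different amounts on the CPM scale. Tfeb had the widest range of group means, 7.91-fold between Nrf2-/- thapsigargin 8 h (7.75 CPM) and Nrf2-/- untreated 48 h (61.3 CPM). Wipi1 followed with 3.79-fold, Ulk1 with 3.02-fold, Map1lc3b with 2.62-fold, Sqstm1 with 2.41-fold and Gabarapl1 with 2.02-fold. Atg12 (1.60-fold), Map1lc3a (1.51-fold), Atg5 (1.45-fold) and Becn1 (1.38-fold) moved least.

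**Figure D1:**
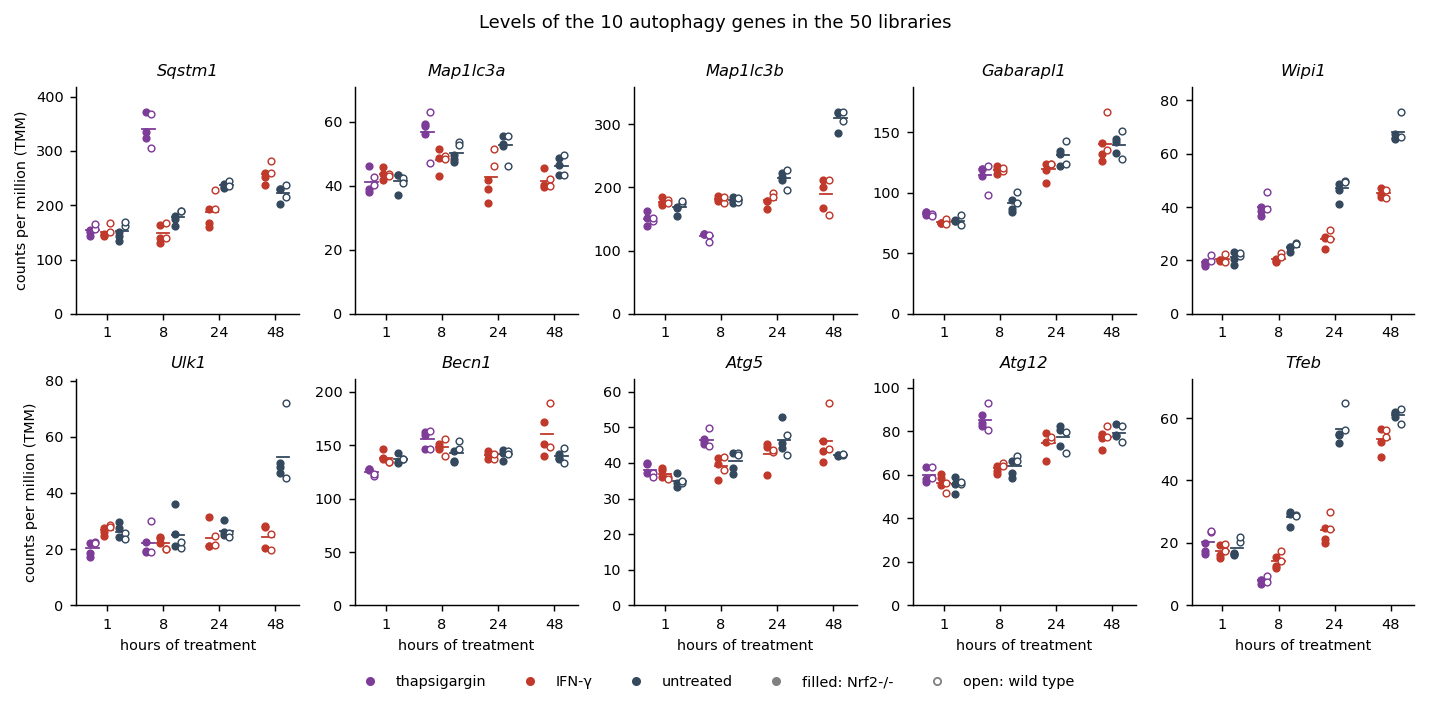
Each panel shows 1 gene, with hours of treatment on the horizontal axis and TMM-scaled CPM on the vertical axis, which starts at 0. Points are libraries (filled Nrf2-/-, open wild type) and short lines are means of the 5 libraries of a treatment and hour. Tfeb's thapsigargin 8 h libraries lie lowest of all, at 6.97 to 9.55 CPM, and Sqstm1's lie highest of all, at 305 to 373 CPM.

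Treatments and culture time changed different numbers of the 10 genes. Calls are from edgeR's quasi-likelihood test over all 16460 genes, with Benjamini-Hochberg adjusted p below 0.05 and both genotypes averaged (5 libraries against 5). With culture time alone, untreated 48 h against untreated 1 h, 9 of the 10 genes rose and 0 fell, against 34.5% higher and 33.6% lower among all genes tested. The median log2 fold was 0.70 over the 10 genes and -0.01 over all genes. Thapsigargin at 8 h raised 6 of the 10 genes and lowered 2, where 34.3% of all genes rose and 32.9% fell. IFN-γ changed 0 of the 10 genes at 1 h in either direction (2.73% of all genes higher and 0.911% lower). An unadjusted p below 0.05 was reached by 0 of the 10 genes, and by 1757 of all 16460 genes, at 1 h of IFN-γ. It raised 1 and lowered 3 at 8 h (19.4% and 20.4% of all genes), raised 0 and lowered 5 at 24 h (27.6% and 28.4%), and raised 2 and lowered 5 at 48 h (27.3% and 28.5%). After 1 h of thapsigargin 0 of the 10 genes were higher and 1 was lower, beside 12.9% and 7.52% of all genes. The comparisons at one hour share their untreated libraries. In bulk RNA, fewer cells of a kind and less RNA per cell cannot be told apart.

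**Figure D2:**
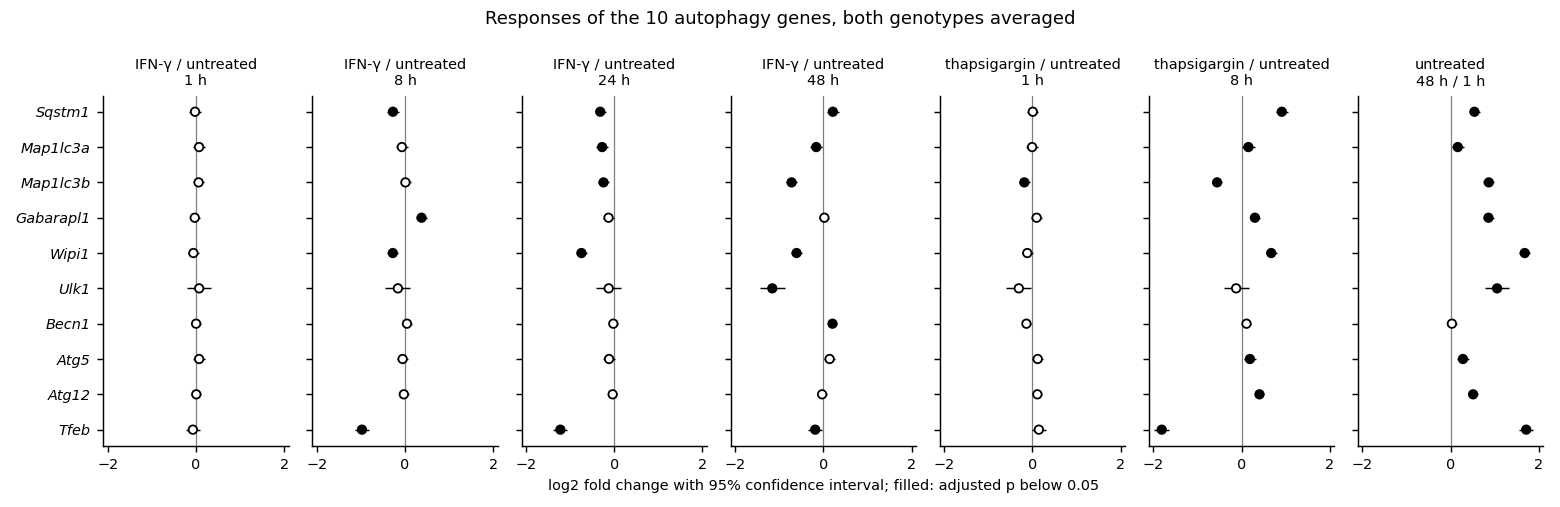
Log2 fold changes (horizontal axis) of the 10 genes (rows) under IFN-γ and thapsigargin against untreated cells of the same hour, and in untreated cells at 48 h against 1 h. Bars are 95% confidence intervals and filled points have an adjusted p below 0.05. Tfeb lies furthest to the left at thapsigargin 8 h (-1.81), and 9 of 10 points are filled and right of 0 in the untreated panel.

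Tfeb, the transcription factor of the group (ENSMUSG00000023990, chr17:47737030-47792419, GRCm38), rose over the untreated culture and was lower than untreated at 8 h under both agents. Its level was 61.7, 61.9 and 60.3 CPM in Nrf2-/- and 63.02 and 57.99 CPM in wild-type untreated 48 h libraries, against 16.5, 16 and 16.8 CPM in Nrf2-/- and 20.2 and 21.8 CPM in wild-type untreated 1 h libraries. All 5 libraries at 48 h were above all 5 at 1 h, a 3.28-fold difference (log2 fold 1.71, SE 0.081, edgeR adjusted p = 1.98e-21). Thapsigargin gave its lowest values. At 8 h Tfeb stood at 8.27, 8.00 and 6.97 CPM in Nrf2-/- and 9.55 and 7.46 CPM in wild-type thapsigargin libraries, against 29.1, 25.2 and 29.98 CPM in Nrf2-/- and 28.9 and 28.7 CPM in wild-type untreated libraries. The 2 sets did not overlap (log2 fold -1.81, SE 0.086, edgeR adjusted p = 2.02e-21), and the fold was -1.86 in Nrf2-/- and -1.76 in wild-type cells. At 1 h of thapsigargin Tfeb had a log2 fold of 0.15 (edgeR adjusted p = 0.221).

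Under IFN-γ Tfeb was already below its untreated level at 8 h. It stood at 15.4, 12.1 and 12.5 CPM in Nrf2-/- and 17.3 and 14.2 CPM in wild-type IFN-γ libraries, against 29.1, 25.2 and 29.98 CPM in Nrf2-/- and 28.9 and 28.7 CPM in wild-type untreated libraries. Every IFN-γ library was below every untreated one (log2 fold -0.98, SE 0.082, edgeR adjusted p = 3.46e-13). At 24 h it stood at 20.1, 21.3 and 24.9 CPM in Nrf2-/- and 30.1 and 24.4 CPM in wild-type IFN-γ libraries, against 52.1, 54.4 and 54.9 CPM in Nrf2-/- and 64.8 and 56.2 CPM in wild-type untreated libraries, again with no overlap (log2 fold -1.22, SE 0.080, edgeR adjusted p = 1.12e-16). At 48 h the gap had narrowed to 56.4, 47.5 and 52.4 CPM in Nrf2-/- and 56.3 and 54.01 CPM in wild-type IFN-γ libraries, against 61.7, 61.9 and 60.3 CPM in Nrf2-/- and 63.02 and 57.99 CPM in wild-type untreated libraries. The libraries still did not overlap, but the difference was small (log2 fold -0.18, SE 0.077, edgeR adjusted p = 0.0414) and its call was lost on leaving out any 1 of 7 of the 10 libraries, both wild-type IFN-γ libraries, replicates 2 and 3 of Nrf2-/- IFN-γ, replicate 1 of wild-type untreated and replicates 1 and 2 of Nrf2-/- untreated, with adjusted p up to 0.153. It was also lost with all genes kept in the test, with kallisto counts, and with the 3 libraries of conflicting labels taken as wild type.

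Ordered by the mean of 5 libraries, Tfeb stood at 8.05 ± 0.976 CPM (SD) at thapsigargin 8 h, 14.3 ± 2.13 at IFN-γ 8 h, 17.6 ± 1.89 at IFN-γ 1 h, 18.3 ± 2.58 untreated at 1 h and 20.2 ± 3.45 at thapsigargin 1 h. The higher levels were 24.1 ± 3.88 CPM at IFN-γ 24 h, 28.4 ± 1.86 untreated at 8 h, 53.3 ± 3.65 at IFN-γ 48 h, 56.5 ± 4.87 untreated at 24 h and 60.98 ± 1.94 untreated at 48 h. Among neighbours in this order, the libraries were apart only between thapsigargin 8 h and IFN-γ 8 h and between untreated 8 h and IFN-γ 48 h. Summed markers of the oligodendrocyte lineage were also lower than untreated at thapsigargin 8 h and under IFN-γ at 8, 24 and 48 h. They rose with untreated time, and their part in the level of Tfeb was not tested. In untreated cells their sum was 5485 to 6780 CPM at 1 h, 7828 to 9263 CPM at 8 h, 18176 to 22257 CPM at 24 h and 33331 to 36338 CPM at 48 h. It was 2434 to 2989 CPM at thapsigargin 8 h, 5234 to 6484 CPM at IFN-γ 8 h, 6398 to 8605 CPM at IFN-γ 24 h and 15998 to 20008 CPM at IFN-γ 48 h.

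Summed markers of other cells and stages also differed with treatment and hour. Astrocyte markers (6 of 6 detected) summed to 63.2 to 70.0 CPM at thapsigargin 8 h and 70.8 to 89.7 CPM at IFN-γ 8 h, against 27.2 to 31.6 CPM in untreated cells at that hour. At IFN-γ 24 h they summed to 46.1 to 62.7 CPM, against 20.5 to 33.7 CPM untreated. The astrocyte sums did not overlap at either hour. They reached 69.7 to 163 CPM in untreated cells at 48 h, against 32.5 to 41.2 CPM at 1 h. Neuron markers summed to 18.6 to 24.9 CPM at thapsigargin 8 h and 21.3 to 28.1 CPM at IFN-γ 8 h, against 13.3 to 19.1 CPM untreated, with an overlap for thapsigargin. Progenitor markers (3 of 3 detected) summed to 608 to 888 CPM in untreated cells at 48 h, against 2051 to 2678 CPM at 1 h. The part of any of these markers in the levels of the autophagy genes was not tested.

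Tfeb belongs to the MiT/TFE family, whose members bind the same E-box, and the other family members did not follow it under thapsigargin. Mitf, Tfe3 and Tfec were on the list of other autophagy genes, and Mitf and Tfe3 are named at thapsigargin 8 h after their values were seen. At 8 h Mitf stood at 28.8, 27.4 and 27.9 CPM in Nrf2-/- and 29.7 and 28.5 CPM in wild-type thapsigargin libraries, against 10.5, 9.96 and 10.8 CPM in Nrf2-/- and 11.7 and 10.2 CPM in wild-type untreated libraries. All 5 thapsigargin libraries were above all 5 untreated ones (log2 fold 1.42, edgeR adjusted p = 2.68e-20), the opposite direction to Tfeb. Tfe3 stood at 45.9, 44.1 and 45.4 CPM in Nrf2-/- and 47.9 and 41.8 CPM in wild-type thapsigargin libraries, against 35.2, 36.4 and 33.5 CPM in Nrf2-/- and 36.5 and 36.7 CPM in wild-type untreated libraries, and was also higher in every thapsigargin library (log2 fold 0.33, edgeR adjusted p = 1.06e-06). Tfec rose too (log2 fold 2.31, edgeR adjusted p = 5.04e-06), but every library of both groups was below 1 CPM. Under IFN-γ Mitf was, like Tfeb, below untreated by 1.44, 2.43 and 0.74 on the log2 scale at 8, 24 and 48 h (edgeR adjusted p = 2.7e-18, 1.94e-27 and 2.54e-12). In untreated cells Mitf rose by 2.66 between 1 and 48 h (edgeR adjusted p = 4.17e-29). Tfe3 had log2 folds of -0.14 at IFN-γ 48 h (edgeR adjusted p = 0.0251) and -0.02 with untreated time (edgeR adjusted p = 0.734).

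**Figure D3:**
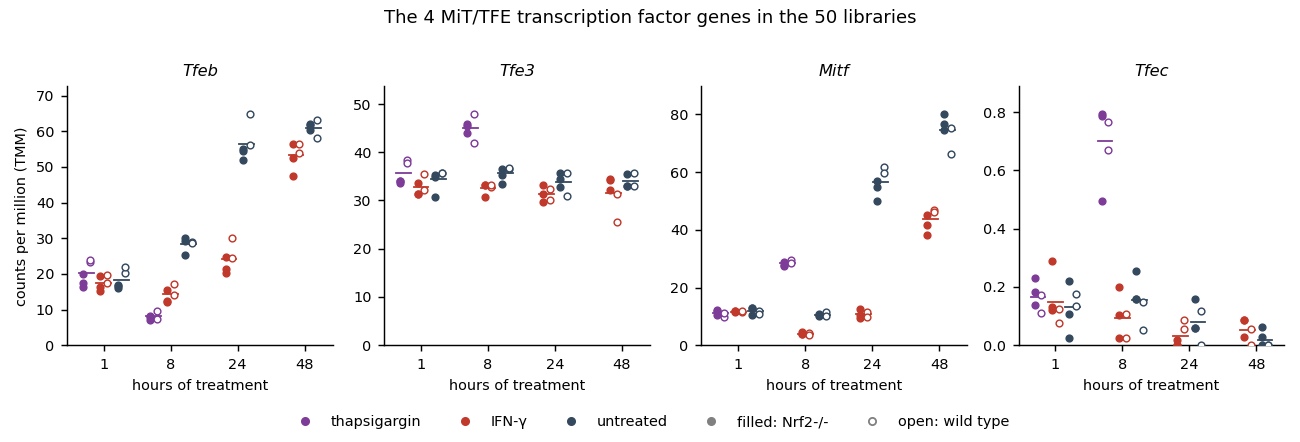
TMM-scaled CPM of the 4 MiT/TFE genes by hours of treatment, 1 point per library (filled Nrf2-/-, open wild type) with the mean of each treatment and hour as a line. At 8 h the thapsigargin libraries lie lowest for Tfeb (6.97 to 9.55 CPM) and highest for Mitf (27.4 to 29.7 CPM).

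Sqstm1 (ENSMUSG00000015837, chr11:50199366-50210827), which encodes the cargo receptor p62, had the largest rise of the 10 genes under thapsigargin at 8 h. At 8 h it stood at 334, 325 and 373 CPM in Nrf2-/- and 369 and 305 CPM in wild-type thapsigargin libraries, against 180.1, 161 and 174 CPM in Nrf2-/- and 189.7 and 190.0 CPM in wild-type untreated libraries. The lowest thapsigargin library was far above the highest untreated one (log2 fold 0.91, SE 0.064, edgeR adjusted p = 6.07e-16, 1.88-fold), and the log2 fold was 1.00 in Nrf2-/- and 0.83 in wild-type cells. At 1 h of thapsigargin it had a log2 fold of 0.01 (edgeR adjusted p = 0.962). Over the untreated culture Sqstm1 rose to 231, 229 and 203 CPM in Nrf2-/- and 238 and 215 CPM in wild-type untreated 48 h libraries, against 150.2, 143 and 135 CPM in Nrf2-/- and 162 and 169 CPM in wild-type untreated 1 h libraries, with no overlap (log2 fold 0.54, SE 0.064, edgeR adjusted p = 1.2e-09).

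Under IFN-γ Sqstm1 was lower at the middle hours and higher at the last. At 8 h the values were 141, 130.4 and 164 CPM in Nrf2-/- and 168 and 139.8 CPM in wild-type IFN-γ libraries, against 180.1, 161 and 174 CPM in Nrf2-/- and 189.7 and 190.0 CPM in wild-type untreated libraries. The mean was lower, although the highest IFN-γ library passed the lowest untreated one (log2 fold -0.28, SE 0.064, edgeR adjusted p = 0.000505). At 24 h they were 160.0, 168 and 193 CPM in Nrf2-/- and 227 and 193 CPM in wild-type IFN-γ libraries, against 233, 233 and 239 CPM in Nrf2-/- and 245 and 236 CPM in wild-type untreated libraries, with no overlap (log2 fold -0.32, SE 0.064, edgeR adjusted p = 4.9e-05). At 48 h the direction was the other way, with 252, 237 and 260.3 CPM in Nrf2-/- and 281 and 259.8 CPM in wild-type IFN-γ libraries, against 231, 229 and 203 CPM in Nrf2-/- and 238 and 215 CPM in wild-type untreated libraries. These libraries overlapped slightly (log2 fold 0.22, SE 0.064, edgeR adjusted p = 0.00368). Ordered by mean, Sqstm1 was at 148 ± 16.4 CPM (SD, n = 5) at IFN-γ 8 h, between 151 and 154 CPM at 1 h in all 3 treatments, 179 ± 12.1 untreated at 8 h, 188 ± 26.4 at IFN-γ 24 h, 223 ± 14.1 and 237 ± 5.02 untreated at 48 and 24 h, 258 ± 15.9 at IFN-γ 48 h and 341 ± 29.1 at thapsigargin 8 h. Only the last of these stood apart from its neighbour.

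The 3 genes of the LC3 and GABARAP family, whose proteins are attached to autophagosome membranes, responded differently from each other. Map1lc3b (ENSMUSG00000031812, chr8:121590361-121598760), which encodes LC3B, was below its untreated level under both agents. At thapsigargin 8 h it stood at 126, 126 and 126 CPM in Nrf2-/- and 125 and 114 CPM in wild-type thapsigargin libraries, against 178, 184 and 176 CPM in Nrf2-/- and 177 and 184 CPM in wild-type untreated libraries. All thapsigargin libraries were below all untreated ones (log2 fold -0.55, SE 0.060, edgeR adjusted p = 1.05e-10). The values at 1 h were 151, 162 and 139 CPM in Nrf2-/- and 147 and 151 CPM in wild-type thapsigargin libraries, against 155, 169 and 167 CPM in Nrf2-/- and 176 and 179 CPM in wild-type untreated libraries. They overlapped, and the 1 h call (log2 fold -0.18, SE 0.059, edgeR adjusted p = 0.0239) was lost without wild-type untreated replicate 1 or 2, wild-type thapsigargin replicate 1 or 2, or Nrf2-/- thapsigargin replicate 3, with adjusted p up to 0.0959, and with kallisto counts.

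Under IFN-γ Map1lc3b was below its untreated level only late. Its means were 178, 181, 180 and 189 CPM at 1, 8, 24 and 48 h of IFN-γ, a course that was not tested. For the same gene the untreated mean went from 169 CPM at 1 h to 310 CPM at 48 h. At 24 h its level was 166, 178 and 178 CPM in Nrf2-/- and 192 and 185 CPM in wild-type IFN-γ libraries, against 217, 222 and 211 CPM in Nrf2-/- and 228 and 195 CPM in wild-type untreated libraries (log2 fold -0.24, SE 0.059, edgeR adjusted p = 0.000587). At 48 h it was 200.1, 211 and 168 CPM in Nrf2-/- and 157 and 212 CPM in wild-type IFN-γ libraries, against 319.8, 318 and 286 CPM in Nrf2-/- and 320.2 and 305 CPM in wild-type untreated libraries (log2 fold -0.72, SE 0.060, edgeR adjusted p = 1.69e-13). Neither hour had an overlap between treated and untreated libraries, and at 8 h the log2 fold was 0.01 (edgeR adjusted p = 0.936). Untreated cells raised Map1lc3b to the 48 h level just given, against 155, 169 and 167 CPM in Nrf2-/- and 176 and 179 CPM in wild-type untreated 1 h libraries (log2 fold 0.87, SE 0.060, edgeR adjusted p = 3.31e-16).

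Gabarapl1 (ENSMUSG00000030161, chr6:129533160-129542346), which encodes a GABARAP-like protein, rose under both agents at 8 h. With IFN-γ it stood at 119.6, 116 and 122 CPM in Nrf2-/- and 118 and 120.5 CPM in wild-type IFN-γ libraries, against 93.8, 87.03 and 84.1 CPM in Nrf2-/- and 101 and 91.7 CPM in wild-type untreated libraries. Every IFN-γ library was above every untreated one (log2 fold 0.37, SE 0.057, edgeR adjusted p = 8.7e-07). This was the only rise among the 10 genes at that hour. Thapsigargin at 8 h gave 114, 119 and 119 CPM in Nrf2-/- and 122 and 98.02 CPM in wild-type thapsigargin libraries, higher on average than the same untreated libraries but overlapping them through wild-type thapsigargin replicate 2 (log2 fold 0.30, SE 0.057, edgeR adjusted p = 1.32e-05). With untreated time it rose to 144, 142 and 133 CPM in Nrf2-/- and 151 and 128 CPM in wild-type untreated 48 h libraries, against 77.4, 76.9 and 76.7 CPM in Nrf2-/- and 73.04 and 81.5 CPM in wild-type untreated 1 h libraries, without overlap (log2 fold 0.86, SE 0.058, edgeR adjusted p = 1.74e-16). By 24 and 48 h the IFN-γ folds were -0.13 and 0.02 (edgeR adjusted p = 0.0547 and 0.748).

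Map1lc3a (ENSMUSG00000027602, chr2:155276297-155278073), which encodes LC3A, moved little, and most of its calls were lost in fits without 1 library. At IFN-γ 24 h it stood at 34.6, 39.1 and 41.7 CPM in Nrf2-/- and 51.5 and 46.3 CPM in wild-type IFN-γ libraries, against 52.6, 53.2 and 55.6 CPM in Nrf2-/- and 55.6 and 46.3 CPM in wild-type untreated libraries. The Nrf2-/- treated libraries were lowest and the wild-type ones overlapped the untreated level (log2 fold -0.27, SE 0.069, edgeR adjusted p = 0.000891). Its log2 fold there was -0.49 in Nrf2-/- and -0.06 in wild-type cells, and the test of that difference gave -0.43 with an unadjusted p = 0.00386 and an edgeR adjusted p = 0.384. At thapsigargin 8 h its values were 56.1, 58.8 and 59.4 CPM in Nrf2-/- and 63.2 and 46.98 CPM in wild-type thapsigargin libraries, against 49.5, 48.5 and 47.5 CPM in Nrf2-/- and 53.7 and 52.7 CPM in wild-type untreated libraries. Wild-type thapsigargin replicate 2 lay below all the others (log2 fold 0.16, SE 0.069, edgeR adjusted p = 0.0452). That call was lost without any 1 of 7 of the 10 libraries, namely both wild-type untreated ones, wild-type thapsigargin replicate 1, and replicates 2 and 3 of both Nrf2-/- groups. Without wild-type thapsigargin replicate 1 the log2 fold was 0.04 (edgeR adjusted p = 0.667), without the library of near wild-type Nfe2l2 level 0.15 (adjusted p = 0.0728), and without the 3 libraries of conflicting labels 0.15 (adjusted p = 0.0802). It was also lost with only the libraries compared in the fit, with no filter, with kallisto counts and with DESeq2.

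The calls for Map1lc3a at IFN-γ 48 h and with untreated time also lay near the threshold. At IFN-γ 48 h (log2 fold -0.16, edgeR adjusted p = 0.0489) it was lost without any 1 of 7 of 10 libraries: both wild-type IFN-γ libraries, replicates 2 and 3 of Nrf2-/- IFN-γ, replicate 1 of wild-type untreated, and replicates 1 and 2 of Nrf2-/- untreated, with adjusted p up to 0.253. Its call with untreated time (log2 fold 0.16, edgeR adjusted p = 0.0384) was lost without any 1 of 6 of 10, both wild-type libraries and Nrf2-/- replicate 3 at 1 h, and wild-type replicate 1 and Nrf2-/- replicates 1 and 2 at 48 h, with adjusted p up to 0.211.

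Wipi1 (ENSMUSG00000041895, chr11:109573331-109611967), which encodes a reader of the phosphoinositide on the growing membrane, differed from untreated cells in opposite directions under the 2 agents at 8 h. Thapsigargin at 8 h gave 38.5, 36.5 and 39.9 CPM in Nrf2-/- and 45.8 and 39.2 CPM in wild-type thapsigargin libraries, against 25.2, 23.1 and 25.1 CPM in Nrf2-/- and 26.4 and 25.99 CPM in wild-type untreated libraries. Every thapsigargin library was above every untreated one (log2 fold 0.67, SE 0.061, edgeR adjusted p = 9.11e-13, 1.59-fold). IFN-γ at 8 h gave 19.9, 19.3 and 20.5 CPM in Nrf2-/- and 22.6 and 21.2 CPM in wild-type IFN-γ libraries, all below those untreated libraries (log2 fold -0.28, SE 0.062, edgeR adjusted p = 0.00029).

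Wipi1 was also lower under IFN-γ at the later hours. At 24 h the values were 24.1, 28.3 and 28.8 CPM in Nrf2-/- and 31.4 and 27.9 CPM in wild-type IFN-γ libraries, against 46.5, 48.4 and 41.1 CPM in Nrf2-/- and 49.7 and 49.3 CPM in wild-type untreated libraries (log2 fold -0.74, SE 0.061, edgeR adjusted p = 8.22e-14). At 48 h they were 44.9, 43.8 and 47.1 CPM in Nrf2-/- and 43.3 and 46.3 CPM in wild-type IFN-γ libraries, against 65.96, 65.4 and 67.3 CPM in Nrf2-/- and 66.2 and 75.8 CPM in wild-type untreated libraries (log2 fold -0.61, SE 0.060, edgeR adjusted p = 1.95e-11). There was no overlap at either hour. Untreated cells at 1 h had 23.04, 20.5 and 18.4 CPM in Nrf2-/- and 21.8 and 22.6 CPM in wild-type untreated 1 h libraries, so the gene rose 3.2-fold over untreated culture, again without overlap (log2 fold 1.68, SE 0.062, edgeR adjusted p = 4.49e-25). Within IFN-γ its mean still went up with time, with 20.7 ± 1.29 CPM at 8 h, 28.1 ± 2.62 CPM at 24 h and 45.1 ± 1.63 CPM at 48 h (SD, n = 5), a course that was not tested. Its lowest mean was 19.6 ± 1.49 CPM at thapsigargin 1 h, and the 3 treatments at 1 h and IFN-γ at 8 h overlapped one another.

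Ulk1 (ENSMUSG00000029512, chr5:110784488-110810097), which encodes the kinase that starts autophagy, changed mainly at 48 h. Untreated cells held it near one level until 24 h, with condition means of 25.1 to 26.3 CPM, and reached 49.1, 50.6 and 47.1 CPM in Nrf2-/- and 45.3 and 71.9 CPM in wild-type untreated 48 h libraries, against 24.4, 29.5 and 27.5 CPM in Nrf2-/- and 25.6 and 23.5 CPM in wild-type untreated 1 h libraries. No 48 h library was as low as any at 1 h (log2 fold 1.05, SE 0.14, edgeR adjusted p = 2.71e-08). Wild-type untreated 48 h replicate 2 was the highest of all. IFN-γ at 48 h left Ulk1 at 27.7, 28.2 and 20.5 CPM in Nrf2-/- and 19.8 and 25.5 CPM in wild-type IFN-γ libraries, all below the untreated 48 h libraries (log2 fold -1.16, SE 0.14, edgeR adjusted p = 8.11e-09). No earlier hour of IFN-γ gave a call, with log2 folds of 0.07, -0.16 and -0.12 at 1, 8 and 24 h (edgeR adjusted p = 1, 0.39 and 0.468). Under thapsigargin at 8 h its values were 22.6, 19.5 and 19.1 CPM in Nrf2-/- and 18.9 and 30.02 CPM in wild-type thapsigargin libraries, against 20.99, 25.5 and 35.97 CPM in Nrf2-/- and 20.6 and 22.5 CPM in wild-type untreated libraries. They overlapped widely (log2 fold -0.12, SE 0.14, edgeR adjusted p = 0.451), with 1 high library in each set. These were wild-type thapsigargin replicate 2 and the Nrf2-/- untreated library whose Nfe2l2 level was near wild type. At 1 h the thapsigargin libraries (17.4 to 22.4 CPM) were all below the untreated ones (23.5 to 29.5 CPM). That difference did not pass (log2 fold -0.31, edgeR adjusted p = 0.117), but it did with only the libraries compared in the fit (adjusted p = 0.003).

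Becn1 (ENSMUSG00000035086, chr11:101285952-101302286), which encodes Beclin 1 of the lipid kinase complex, was the steadiest of the 10 genes. Its values at IFN-γ 48 h were 152, 140.4 and 172 CPM in Nrf2-/- and 189.5 and 148 CPM in wild-type IFN-γ libraries, against 142, 138 and 138 CPM in Nrf2-/- and 148 and 133 CPM in wild-type untreated libraries. They overlapped, and the rise was small (log2 fold 0.21, SE 0.052, edgeR adjusted p = 0.000768). Under thapsigargin at 8 h it stood at 146, 163 and 159.7 CPM in Nrf2-/- and 163 and 147 CPM in wild-type thapsigargin libraries, against 144, 134 and 135 CPM in Nrf2-/- and 154 and 147 CPM in wild-type untreated libraries, a difference that did not pass (log2 fold 0.11, SE 0.052, edgeR adjusted p = 0.0542). At 1 h the thapsigargin libraries (121 to 128 CPM) were all below the untreated ones (133 to 143 CPM). That difference did not pass (log2 fold -0.14, edgeR adjusted p = 0.0601). It did with DESeq2's size factors (adjusted p = 0.0254), DESeq2 (0.0184), only the libraries compared (0.0116) and without Nrf2-/- thapsigargin replicate 2 (0.0333). With untreated time Becn1's log2 fold was 0.03 with a 95% interval of -0.08 to 0.13 (edgeR adjusted p = 0.65). Becn1 was thus the only one of the 10 genes without a call over the untreated culture.

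Atg5 (ENSMUSG00000038160, chr10:44268358-44364291) and Atg12 (ENSMUSG00000032905, chr18:46730144-46741580), whose products are joined into the conjugate that directs LC3 attachment, rose under thapsigargin at 8 h. Atg12 stood at 82.2, 87.4 and 83.9 CPM in Nrf2-/- and 92.9 and 80.5 CPM in wild-type thapsigargin libraries, against 66.5, 60.9 and 58.4 CPM in Nrf2-/- and 68.5 and 66.1 CPM in wild-type untreated libraries. There was no overlap (log2 fold 0.41, SE 0.054, edgeR adjusted p = 1.76e-08). Atg5 stood at 45.3, 46.1 and 46.6 CPM in Nrf2-/- and 49.7 and 44.9 CPM in wild-type thapsigargin libraries, against 42.8, 38.5 and 36.9 CPM in Nrf2-/- and 42.7 and 42.2 CPM in wild-type untreated libraries. Its libraries were apart too, by a narrower gap (log2 fold 0.19, SE 0.064, edgeR adjusted p = 0.00831), and the call was lost without wild-type thapsigargin replicate 1 (log2 fold 0.15, edgeR adjusted p = 0.0668) and with kallisto counts (adjusted p = 0.0751). IFN-γ gave no call for either gene at any hour, the nearest being Atg5 at 48 h (log2 fold 0.14, edgeR adjusted p = 0.0537). Atg5 passed there without wild-type IFN-γ replicate 2 (log2 fold 0.25, edgeR adjusted p = 0.000805), without Nrf2-/- IFN-γ replicate 2 (0.17, adjusted p = 0.03) and with no filter on low counts (0.17, adjusted p = 0.029). Both rose in untreated cells between 1 and 48 h, Atg12 by 0.51 (edgeR adjusted p = 9.45e-11) and Atg5 by 0.28 on the log2 scale (edgeR adjusted p = 0.0002), with no overlap for either.

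The 8 h comparisons hold the 3 libraries of conflicting labels and, in the untreated group, the library whose Nfe2l2 level was near wild type. Without that library the thapsigargin log2 fold was -1.78 for Tfeb, 0.92 for Sqstm1 and 0.68 for Wipi1, and the IFN-γ log2 fold was -0.95, -0.27 and -0.27 for the same genes. Without the 3 conflicting libraries the thapsigargin folds were -1.86, 0.91 and 0.67 and the IFN-γ folds -0.98, -0.26 and -0.29. All these calls stayed, and among the other members called at 8 h against untreated cells only Map1lc3a lost its call in either way. With the 3 libraries taken as wild type, Becn1 gained a call at thapsigargin 8 h (log2 fold 0.13, edgeR adjusted p = 0.0375).

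Set directly against each other at 8 h, thapsigargin left 5 of the 10 genes higher and 2 lower than IFN-γ, where 34.1% of all genes were higher and 33.8% lower. Sqstm1 (log2 fold 1.19, edgeR adjusted p = 1.6e-19) and Wipi1 (log2 fold 0.95, edgeR adjusted p = 4.17e-17) differed most in the upward direction, and Atg12 (log2 fold 0.43, edgeR adjusted p = 3.97e-09), Atg5 (log2 fold 0.25, edgeR adjusted p = 0.000849) and Map1lc3a (log2 fold 0.23, edgeR adjusted p = 0.00386) by less. The Map1lc3a call was lost without wild-type thapsigargin replicate 1 (log2 fold 0.11, adjusted p = 0.167). Tfeb (log2 fold -0.83, edgeR adjusted p = 4.52e-11) and Map1lc3b (log2 fold -0.56, edgeR adjusted p = 6.63e-11) were lower under thapsigargin, and Gabarapl1, which was higher than untreated under both, had a log2 fold of -0.07 between them with a 95% interval of -0.19 to 0.05 (edgeR adjusted p = 0.288).

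At 1 h the same comparison called Tfeb higher (log2 fold 0.22, edgeR adjusted p = 0.0487) and Map1lc3b (log2 fold -0.24, edgeR adjusted p = 0.00182), Ulk1 (log2 fold -0.38, edgeR adjusted p = 0.0407) and Becn1 (log2 fold -0.14, edgeR adjusted p = 0.0461) lower, that is 1 higher and 3 lower of 10 where 13.9% of all genes were higher and 10.5% lower. The calls of Tfeb, Ulk1 and Becn1 were lost without any 1 of 8, 8 and 7 of the 10 libraries, with adjusted p up to 0.218, 0.109 and 0.134. Each of these 3 calls was lost without either wild-type library of either treatment. The remaining libraries were Nrf2-/- thapsigargin replicates 1 and 2 and IFN-γ replicates 1 and 3 for Tfeb, thapsigargin replicates 2 and 3 and IFN-γ replicates 1 and 3 for Ulk1, and thapsigargin replicates 1 and 3 and IFN-γ replicate 3 for Becn1.

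The response to IFN-γ of 6 of the 10 genes differed between 48 and 24 h by a direct test of the difference, where 42.9% of all genes did. Tfeb's fold was higher at 48 h by 1.04 on the log2 scale (0.81 to 1.26, edgeR adjusted p = 4.78e-10) and Sqstm1's by 0.53 (0.35 to 0.72, edgeR adjusted p = 6.02e-06), a gene that was below untreated at 24 h and above it at 48 h. Ulk1's was lower by 1.03 (difference -1.03, -1.43 to -0.64, edgeR adjusted p = 4.75e-05) and Map1lc3b's by 0.48 (difference -0.48, -0.65 to -0.31, edgeR adjusted p = 1.13e-05). Becn1 (0.23, edgeR adjusted p = 0.0111) and Atg5 (0.26, edgeR adjusted p = 0.0181) had smaller differences that rested on few libraries. Becn1's difference no longer passed once wild-type IFN-γ 48 h replicate 1 (0.13, adjusted p = 0.107) was left out, or wild-type untreated 48 h replicate 2 (0.19, adjusted p = 0.0517), and Atg5's without the first of these (0.16, adjusted p = 0.138) or wild-type untreated 24 h replicate 1 (0.22, adjusted p = 0.0554). This comparison was added after the values were seen.

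None of the 10 genes passed the test between Nrf2-/- and wild-type cells in any treatment. Averaged over hours, 0 of 10 were called under thapsigargin, IFN-γ or no treatment, where 0.51%, 0.0547% and 0.0243% of all genes were. An unadjusted p below 0.05 was reached by 2, 2 and 3 of the 10 genes, and by 1549, 1472 and 1100 of all 16460 genes. Sqstm1, the NRF2 target, had log2 folds of -0.04 under thapsigargin (-0.17 to 0.09, edgeR adjusted p = 0.916), -0.15 under IFN-γ (-0.24 to -0.06, edgeR adjusted p = 0.248) and -0.11 in untreated cells (-0.20 to -0.02, edgeR adjusted p = 0.692). The 95% intervals thus reach no lower than -0.24 on the log2 scale. Its fitted level was lower in Nrf2-/- in 9 of 10 pairs of groups, which span -0.28 to 0.03. Tfeb was likewise lower in 9 of 10 pairs, with log2 folds of -0.27 (-0.44 to -0.10), -0.19 (-0.30 to -0.07) and -0.14 (-0.25 to -0.02) under thapsigargin, IFN-γ and no treatment (edgeR adjusted p = 0.186, 0.256 and 0.674). Wipi1 was lower in 9 of 10 pairs with folds of -0.15, -0.08 and -0.11 (edgeR adjusted p = 0.397, 0.615 and 0.647). Gabarapl1 and Atg12 were lower in 7 of 10 pairs, Map1lc3a and Atg5 in 6, Map1lc3b and Becn1 in 5 and Ulk1 in 4. The share of all genes lower in 9 of 10 pairs was not counted, so these counts are description only.

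Map1lc3b, whose promoter window holds an antioxidant core, had genotype log2 folds of 0.046, -0.0086 and -0.028, with 95% intervals of -0.07 to 0.17, -0.09 to 0.08 and -0.11 to 0.06. The targeted gene itself was the only one of 7 genes on the NRF2 list to pass in each treatment (Nfe2l2 log2 fold -4.45, -6.10 and -4.82, edgeR adjusted p = 1.67e-06, 9.76e-13 and 4.17e-11). The responses to IFN-γ at 1, 8, 24 and 48 h and to thapsigargin at 1 and 8 h were also compared between genotypes. In each of these 6 tests 0 of the 10 genes and 0% of all genes passed with edgeR, while DESeq2 called 1, 2, 9, 5, 1 and 1 of all genes and 486, 427, 1237, 1366, 335 and 1376 of all genes had an unadjusted p below 0.05. Of the 10 genes, Map1lc3a at IFN-γ 24 h and Ulk1 at thapsigargin 8 h had an unadjusted p below 0.05. Ulk1's thapsigargin fold was -0.43 in Nrf2-/- and 0.18 in wild-type cells, a difference of -0.61 (unadjusted p = 0.0337, edgeR adjusted p = 0.59). Each of these folds includes 1 high library. They are Nrf2-/- untreated replicate 3 (35.97 CPM, group mean 27.5 CPM) and wild-type thapsigargin replicate 2 (30.02 CPM, against 18.9 CPM in replicate 1). Without the near wild-type Nfe2l2 library, or without the 3 libraries of conflicting labels, 0 of the 10 genes passed in any averaged genotype comparison either.

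**Figure D4:**
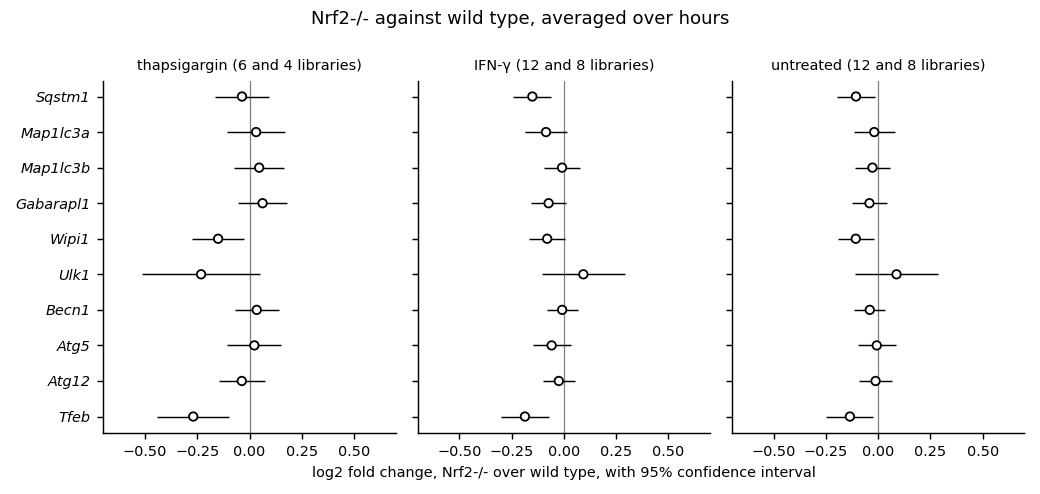
Log2 fold change of the 10 genes, Nrf2-/- over wild type, averaged over hours, under thapsigargin (6 and 4 libraries), IFN-γ (12 and 8) and no treatment (12 and 8). Bars are 95% confidence intervals, and no point is filled, since none had an adjusted p below 0.05. Sqstm1 lies at -0.04, -0.15 and -0.11.

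The rest of the pathway was read from 83 other autophagy and lysosome genes, of which 82 were tested. With untreated time 70 of the 82 rose and 3 fell (median log2 fold 0.56), where 34.5% of all genes rose and 33.6% fell (median -0.01). The 3 were Tfec, Trib3 and Sesn1. All 18 lysosome genes rose (median 1.05), as did 9 of 9 conjugation genes, 6 of 6 lipid transfer and WIPI genes and 10 of 11 receptors. Retreg1, a receptor for autophagy of the endoplasmic reticulum, had the largest rise of them (log2 fold 3.49, edgeR adjusted p = 2.12e-33), and Ctsl, a lysosomal protease, rose by 1.88 (edgeR adjusted p = 7.77e-26).

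IFN-γ raised 1 and lowered 1 of the 82 at 1 h (2.73% and 0.911% of all genes) and raised 10 and lowered 21 at 8 h (19.4% and 20.4% of all genes). It raised 11 and lowered 47 at 24 h (27.6% and 28.4%) and raised 6 and lowered 56 at 48 h (27.3% and 28.5%). These calls are against untreated cells of the same hour, in which most of the 82 rose with time. A gene called lower here may thus have risen less and not fallen. The median log2 folds of the 82 were 0.01, -0.09, -0.22 and -0.25 at 1, 8, 24 and 48 h, beside -0.0022, -0.024, -0.0023 and -0.015 over all genes. At 8 h 5 of 6 lipid transfer and WIPI genes were lower, and at 48 h 12 of 18 lysosome genes were lower and 1 was higher. Trib3, a stress-induced inhibitor of AKT signalling, had the largest called rise of the 82 at 8 h (log2 fold 3.05, edgeR adjusted p = 7.44e-12), 24 h (log2 fold 2.27, edgeR adjusted p = 3.51e-07) and 48 h (log2 fold 1.71, edgeR adjusted p = 2.05e-05), at a low level of 2.11 to 4.00 CPM in the IFN-γ 8 h libraries against 0.0788 to 0.505 CPM in the untreated ones. Lamp2, a lysosomal membrane protein, came next at 8 h, with 325, 314 and 341 CPM in Nrf2-/- and 327 and 337 CPM in wild-type IFN-γ libraries, against 132, 133 and 135 CPM in Nrf2-/- and 139 and 135 CPM in wild-type untreated libraries. The 8 h libraries were far apart (log2 fold 1.29, edgeR adjusted p = 9.68e-22), and Lamp2 was still higher at 24 h (log2 fold 0.68, edgeR adjusted p = 1.5e-13) and 48 h (log2 fold 0.21, edgeR adjusted p = 0.00196). Retreg1 was below its untreated level at 24 h (log2 fold -1.32, edgeR adjusted p = 2.04e-20) and 48 h (log2 fold -1.93, edgeR adjusted p = 3.05e-26). In untreated cells the same gene rose by 3.49 on the log2 scale between 1 and 48 h. The protease Ctsd was lower at 24 h (log2 fold -0.79, edgeR adjusted p = 1.91e-15) and the peptidase Tpp1 at 48 h (log2 fold -1.12, edgeR adjusted p = 7.09e-13). Progenitor markers (3 of 3 detected) summed to 1268 to 1994 CPM under IFN-γ at 24 h against 494 to 703 CPM in untreated cells, and to 1076 to 1290 CPM against 608 to 888 CPM at 48 h. Their part in these changes was not tested.

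Thapsigargin raised 14 and lowered 7 of the 82 genes at 1 h (12.9% and 7.52% of all genes) and raised 29 and lowered 31 at 8 h (34.3% and 32.9% of all genes), with median log2 folds of -0.02 and -0.04 beside -0.0047 and 0.011 over all genes. At 8 h 4 of 6 lipid transfer and WIPI genes rose and 1 fell, while 3 of 18 lysosome genes rose and 11 fell. Trib3 showed the largest rise here too, with 410.0, 412 and 385 CPM in Nrf2-/- and 486 and 416 CPM in wild-type thapsigargin libraries against 0.0788 to 0.505 CPM in the untreated libraries (log2 fold 10.20, edgeR adjusted p = 1.61e-28). Sesn2, which restrains mTORC1, followed (log2 fold 2.44, edgeR adjusted p = 6.44e-30). The lysosomal protease Ctsb (log2 fold -0.85, edgeR adjusted p = 7.13e-15) and the mitochondrial receptor Bnip3 (log2 fold -0.95, edgeR adjusted p = 1.32e-15) fell. Compared with IFN-γ, thapsigargin left 16 of the 82 higher and 12 lower at 1 h (13.9% and 10.5% of all genes), and 32 higher and 29 lower at 8 h (34.1% and 33.8% of all genes). As checks of the treatments, 5 of 5 genes of an IFN-γ list rose at 1 h of IFN-γ and 5 of 5 genes of an endoplasmic reticulum stress list rose at 8 h of thapsigargin.

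**Figure D5:**
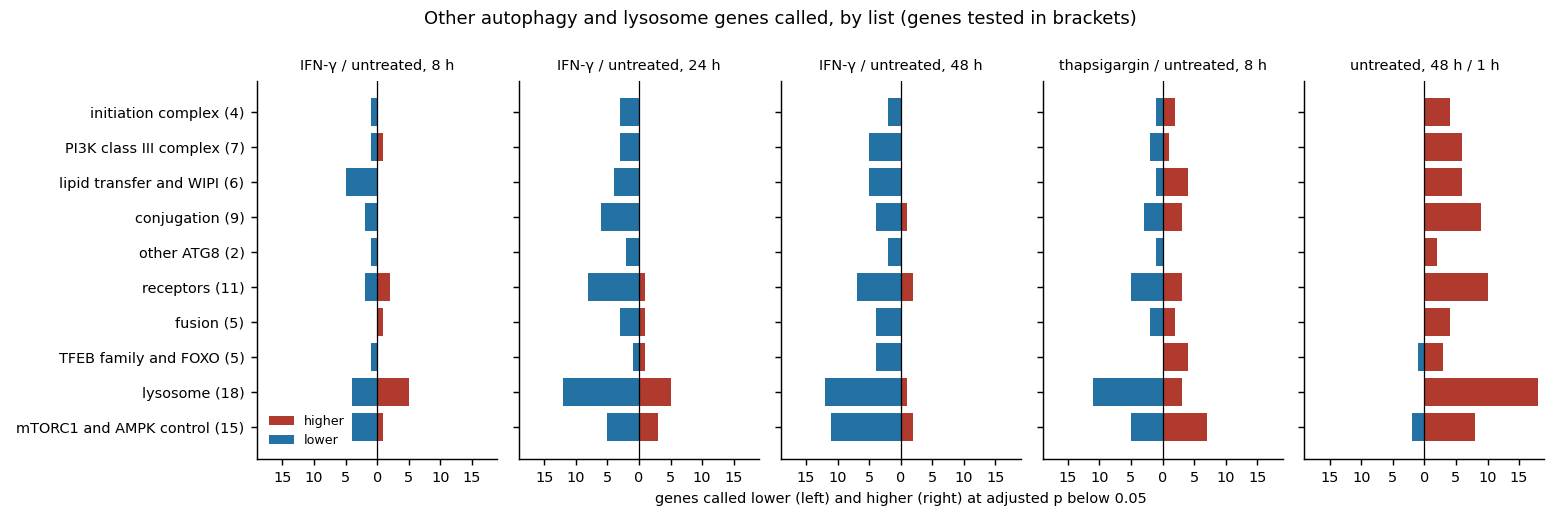
Number of genes called higher (right) and lower (left) at adjusted p below 0.05 in 10 lists of other autophagy and lysosome genes, for IFN-γ at 8, 24 and 48 h, thapsigargin at 8 h, and untreated cells at 48 h against 1 h. The number of genes tested per list stands in brackets. All 18 lysosome genes lie to the right in the untreated panel and 12 of 18 lie to the left under IFN-γ at 48 h.

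Over the 20 group means on a log2 scale, the 10 genes did not share 1 pattern. The pair most alike was Atg5 and Atg12 (Pearson r = 0.92), followed by Sqstm1 and Atg12 (r = 0.90), Sqstm1 and Atg5 (r = 0.85), Gabarapl1 and Atg12 (r = 0.85) and Wipi1 and Atg12 (r = 0.84). Map1lc3b was nearest to Ulk1 (r = 0.82), and Tfeb to Map1lc3b (r = 0.80). Sqstm1 had r = 0.15 with Tfeb and r = -0.05 with Map1lc3b. Among all genes tested, the closest to Tfeb were Inppl1, Tmem63a and Tmcc3 (r = 0.99 each), to Sqstm1 Ilvbl and Gosr2 (r = 0.97) and Serf2 (r = 0.96), and to Map1lc3b Prcp (r = 0.98), Ei24 (r = 0.97) and Ctsa (r = 0.96). For Wipi1 the nearest was Anxa5 (r = 0.98), for Gabarapl1 Kat2b (r = 0.99), for Ulk1 Cux1 (r = 0.96), for Map1lc3a Map3k10 (r = 0.92) and for Becn1 Atad1 (r = 0.86). Atg5 and Atg12 both had AI597479 as their nearest gene (r = 0.94 and 0.95). The points are 20 means of the same 50 libraries for every gene, and these values describe likeness only.

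The transcripts behind these gene counts differ in how single they are. In the deposited estimated counts, Atg12-201 and Atg5-201 held nearly all of their genes' counts (100% and 99.86%), Gabarapl1-201 95.3%, Sqstm1-202 87.8%, Ulk1-201 87.8% and Map1lc3b-201 80.2%. Wipi1 was split between Wipi1-202 (50.2%) and Wipi1-201 (48.7%), and Tfeb among Tfeb-202 (52.4%), Tfeb-212 (22.9%) and Tfeb-204 (11.5%). Tfeb-204 varied within groups, with 6.75% to 18% in Nrf2-/- libraries of thapsigargin 8 h and 21.9% and 30.6% in wild-type ones, so no difference in transcript use is read from it. For Becn1 the estimate put 31.1% on Becn1-201, annotated as a target of nonsense-mediated decay, and 14.3% on the protein-coding Becn1-205. Becn1-202 and Becn1-210, both annotated as retained introns, held 24.98% and 12.8%. The TPM of a gene sums all its transcripts, whatever their annotation. For Map1lc3a it put 62.4% on Map1lc3a-203, annotated as a processed transcript, and 35.1% on the protein-coding Map1lc3a-201.

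Some of the genes overlap others on the opposite strand, and whether counting used strand is not given in the sources used here. Cntd1 covers 43.9% of the exon bases of Becn1 but stood at 0.085 to 2.39 CPM, against 121 to 189.5 CPM for Becn1. Mrnip covers 17.3% of Sqstm1's exon bases, at 5.78 to 12.3 CPM against 130.4 to 373 CPM for Sqstm1. Zcchc14 (92.7 to 174 CPM) shares 0.77% of the exon bases of Map1lc3b, and 1700101I11Rik shares 28.3% of those of Gabarapl1 and has no entry under that symbol. Reads of such pairs cannot be told apart where counting ignored strand.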

How the data were processed

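The gene table holds read counts that the authors made with STAR and featureCounts, per the submitters' processing notes, and a second deposited table holds estimated counts per transcript from kallisto. The notes also name edgeR. The genome build, annotation, strand option and tool versions were not given in the sources used here. Of 39056 gene identifiers, 38872 matched GENCODE M21 (GRCm38) without their version part, which gave symbols and positions, and 184 did not. The isoform table has 112588 transcripts, of which 111887 (99.65% of the estimated counts) were summed to genes and rounded for 1 alternative, and were divided by transcript length for TPM.

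All 50 libraries (32252272 to 54657205 counts) entered 1 fit with a mean per group in edgeR 4.0.16 (R 4.3.3): filterByExpr over the 20 groups, TMM scaling and a robust quasi-likelihood F-test, with Benjamini-Hochberg adjustment over 16460 genes, a threshold of 0.05 and a common dispersion of 0.00983. Both genotypes were averaged with equal weight in the treatment comparisons. The depth and the 2 or 3 libraries per group limit the precision. The fitting steps were also run on independent counts simulated from the fitted levels and dispersions. Such counts cannot show the effect of wrong labels or of technical replicates.

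The 10 genes and the lists were chosen with earlier results of these data known. Besides the 10 genes, the text names the 3 listed autophagy or lysosome genes with the largest change in each direction among those called, and the 3 genes most like each member over the group means (Pearson r of log2 CPM with a prior count of 2). The comparison of the IFN-γ responses at 48 and 24 h was added after the values were seen. Alternatives were DESeq2's size factors, DESeq2 1.42.0 itself, no filter on low counts, kallisto sums, only the libraries of a comparison, Xist as a covariate, the 3 libraries of conflicting labels left out or taken as wild type, and each library left out in turn. Replicate numbers follow the order of the samples and pair nothing. Promoter sequences are from RefSeq (GRCm38.p6). Protein sequences were not used here. Some values that the rule for named genes covers are not reported here.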

Additional observations from a re-analysis of the deposited data

Results flagged for a closer look

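For 6 of the 10 genes the response to IFN-γ differed between 48 and 24 h by a test of the difference itself, averaged over both genotypes (edgeR's quasi-likelihood test with Benjamini-Hochberg adjustment, 10 libraries against 10), where 42.9% of all genes did. The comparison was chosen after the values were seen, so its calls give no independent support. The values are log2 differences, the fold at 48 h minus the fold at 24 h. Tfeb had a difference of 1.035 and Sqstm1 of 0.5332. Ulk1 had -1.032 and Map1lc3b -0.4765, and Becn1 and Atg5 had 0.2278 and 0.2592. Tfeb's fold against untreated cells was -0.18 at 48 h and -1.22 at 24 h, Sqstm1's was 0.22 at 48 h and -0.32 at 24 h, and Ulk1's was -1.16 at 48 h and -0.12 at 24 h. Becn1 kept its call in 18 and Atg5 in 18 of the 20 fits without 1 library, and Atg5 lost it with only the libraries of the comparison.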

How the results depend on the processing

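No result for the 10 genes changed direction with a call under any alternative run. The number of the 10 genes called stayed within 1.5 times that reported, except in the 2 comparisons at 1 h that hold thapsigargin. Against untreated cells, where 1 was reported, it was 2 with DESeq2's size factors, 0 with kallisto sums, 3 with only the libraries of the comparison, 2 with DESeq2, and 0 to 2 when 1 library was left out. Against IFN-γ, where 4 were reported, it was 1 with no filter on low counts, 2 with kallisto sums, 2 without the 3 libraries of conflicting labels, 1 with these as wild type, and 1 to 4 when 1 library was left out. The cause was not tested. Leaving out 1 library gave 2074 values for the 10 genes that counted as the same. Another 61 lost a call, 12 gained one and 53 uncalled values moved by more than their standard error. A value counted as the same if it kept its call and direction or, where uncalled, moved by no more than its standard error. Uncalled values near 0 may thus have changed sign. Among all genes, 4 genotype calls in untreated cells became 9 with kallisto sums, 8 with DESeq2, 7 with the Xist covariate and 1 with the conflicting libraries as wild type. Under IFN-γ 9 became 26 with DESeq2, 18 with no filter, 5 with only the libraries compared and 5 with the conflicting libraries as wild type, and 8 to 121 when 1 library was left out. Under thapsigargin 84 became 170 with DESeq2, 44 with only the libraries compared, 4 with the Xist covariate, 4 without and 0 with the conflicting libraries as wild type, and 2 to 118 when 1 library was left out. The genotype differences of a response, 0 in each fit reported, reached 7 at IFN-γ 1 h with only the libraries compared, and up to 1, 40, 770 and 201 at IFN-γ 8, 24 and 48 h and thapsigargin 8 h when 1 library was left out, and 0 of the 10 genes was called in any of these. No paired analysis was possible because the labels give the libraries no shared replicate numbers. With 2 and 3 libraries per group, small changes in the 10 genes may have been missed, and the 95% intervals give the precision of each fold.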
